A study of Caenorhabditis elegans with 4 samples.

Results

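The genes described here encode folding enzymes, lectin chaperones and stress sensors of the endoplasmic reticulum (ER) of Caenorhabditis elegans. They were chosen by name from a list of 10 genes, namely pdi-1, pdi-2, pdi-3, pdi-6, crt-1, cnx-1, ero-1, xbp-1, ire-1 and pek-1. Of these 10 genes, 8 were found by name among the 16562 loci of the authors' deposited table, and pdi-3 and pdi-6 were not analysed here. RNA from whole wild-type worms labelled as L4, the last larval stage, was sequenced from 2 samples that received NO and from 2 control samples. The NO samples were exposed to 1 mM MAHMA NONOate, a compound that releases nitric oxide (NO) in solution, and recovered for 4 h at 20 °C. The controls are untreated per the series text, and all worms were grown on plates seeded with Escherichia coli OP50. One protocol text covers treated and control worms without describing how the controls were handled, so NO, the donor compound and the handling cannot be told apart.

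Proteins that enter the secretory pathway fold in the ER, where protein disulfide isomerases form and reshuffle disulfide bonds and the oxidase ERO-1 restores their oxidising power. The lectin chaperones calnexin (CNX-1) and calreticulin (CRT-1) hold newly glycosylated proteins until they are folded. When unfolded proteins accumulate, the membrane sensor IRE-1 splices the mRNA of the transcription factor XBP-1 so that it encodes the active protein, and the sensor PEK-1, the worm PERK kinase, slows translation. In nematodes the same machinery serves the cuticle collagens, and PDI-2 is also a subunit of the prolyl 4-hydroxylases that modify them.

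The table holds 1 value per condition for each locus, with the replicates combined by the authors, and the values were read as FPKM, fragments scaled by transcript length and by library size. The spread between single libraries and their depth are unknown, so every standard error (SE) given is the log2 fold divided by the deposited test statistic, and every 95% interval is the log2 fold plus or minus 1.96 SE. A locus was called at a deposited adjusted p under 0.05, a rule that 66 loci passed, or 0.399% of all loci. These were 64 loci that were higher after NO, or 0.386% of all loci, and 2 that were lower, or 0.0121%. The deposited unadjusted p was under 0.05 for 512 loci, or 3.09% of all loci. Whether the samples of a group were separate cultures is not in the labels, and the p-values then measure only the spread between these samples, which may be technical. Fewer cells of a type and less RNA per cell cannot be told apart in whole worms. Of 19 marker genes, for muscle, pharynx, neurons, intestine, epidermis, germline, sperm, oocytes and yolk, all were above 0 in both conditions. Of these markers 0 were called, and 9 had higher and 10 lower values in NO. The epidermal marker col-19, a collagen known for its adult expression, was listed at 1808 FPKM in NO and 2294 FPKM in control worms, and the yolk protein gene vit-2 at 2370 FPKM in NO and 3032 FPKM in control worms. Transcripts known for the adult were thus abundant in worms labelled as L4, in both groups. Over all loci that averaged 1 FPKM or more, the quartiles of the log2 fold, -0.21 and 0.29, lay within the median SE of 0.52. For 6 of the 19 markers the change was larger than its SE, which held for none of the 8 ER folding and sensor genes. The lower ones were col-19, vit-2, vit-6 (3003 FPKM in NO, 3948 FPKM in control) and the yolk receptor gene rme-2 (211 FPKM in NO, 299 FPKM in control; log2 fold -0.50, SE 0.27). The higher ones were the muscle myosin gene myo-3 (28.2 FPKM in NO, 21.4 FPKM in control) and the sperm gene msp-142 (236 FPKM in NO, 183 FPKM in control). The part of these differences in the results was not tested.

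None of the ER folding and sensor genes was called by the authors' test as higher or lower after NO. Of the 8 genes found, 0 were called higher, against 0.386% of all loci, and 0 were called lower, against 0.0121%. Likewise 0 had an unadjusted p under 0.05, against 3.09% of all loci. All 8 genes had a mean above 10 FPKM, so none was lost to low values. The deposited log2 folds ran from -0.23 for ire-1 to 0.03 for crt-1, and each was smaller than its own SE. The share of all loci with a change under their SE was not counted. The quartiles over all loci, given above, also lay within the median SE, so this does not set the 8 genes apart. All 8 shared an adjusted p of 0.99994, the highest in the deposited table, which 16266 loci carried. The 95% intervals of the 8 folds all lay between 0.547 and 1.59, so neither a doubling nor a fall to 0.5 of the control level lay within any of them. To be called, these genes would have needed a rise of 2.22-fold (crt-1) to 2.76-fold (ero-1), taking the largest unadjusted p that was called, 0.000179, as the limit. A deposited fold smaller than that would not have been called.

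**Figure D1:**
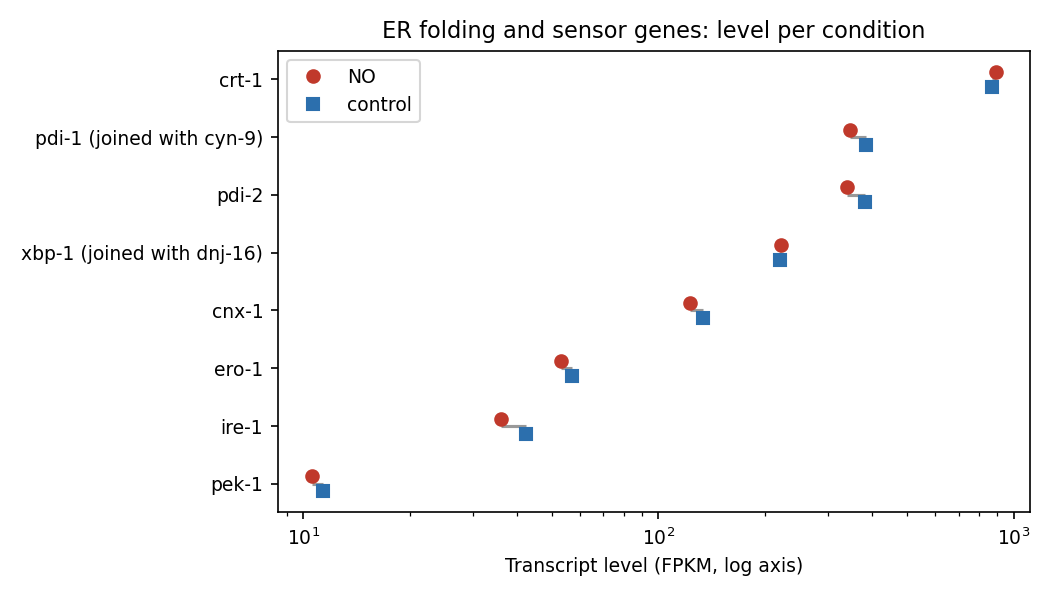
Transcript level in FPKM on a log axis for the 8 ER folding and sensor genes, with circles for the authors' NO value and squares for their control value, each combining 2 samples. The order from crt-1 down to pek-1 is the same in both conditions, with pdi-1 and xbp-1 standing for their joined loci.

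The disulfide isomerase loci that were found and the gene of the oxidase that serves them were listed slightly lower after NO, as were most loci of like abundance. Lower values in NO were found in 76.6% of all loci over 100 FPKM and in 62.05% at 10 to 100 FPKM. pdi-3 and pdi-6 were not analysed. pdi-2, whose product forms disulfide bonds and also joins collagen prolyl 4-hydroxylases, was listed at 341 FPKM in NO and 381 FPKM in control worms in the authors' deposited table. That is a fold of 0.895 (95% interval 0.575 to 1.39; log2 fold -0.16, SE 0.33, unadjusted p = 0.624 by the authors' test). pdi-1, another disulfide isomerase gene, had no locus of its own. It was deposited in a locus joined with its neighbour cyn-9, a cyclophilin gene, so the value covers both genes and cannot be split. The joined locus stood at 346 FPKM in NO and 383 FPKM in control worms, a fold of 0.903 (95% interval 0.585 to 1.39). Its level was within 1.02-fold of that of pdi-2 in NO worms and within 1.01-fold in control worms. ero-1, which encodes the thiol oxidase that passes electrons from disulfide isomerases to oxygen, was less abundant, at 53.3 FPKM in NO and 57.2 FPKM in control worms in the deposited table. Its fold was 0.932 (95% interval 0.547 to 1.59; log2 fold -0.10, SE 0.39), the widest interval of the 8 genes. pdi-2 stood 6.39-fold above ero-1 in NO worms and 6.65-fold above it in control worms, both levels being per transcript length.

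The lectin chaperones were listed on either side of no change. crt-1, which encodes calreticulin, the soluble lectin chaperone and a calcium store of the ER, was the most abundant gene of the set. Its deposited level was 890 FPKM in NO and 870 FPKM in control worms, higher than 98.6% of all loci by the mean of the conditions. The fold was 1.02 (95% interval 0.674 to 1.55; log2 fold 0.03, SE 0.31, unadjusted p = 0.913 by the authors' test). cnx-1, which encodes calnexin, the membrane-bound lectin chaperone, was deposited at 123 FPKM in NO and 134 FPKM in control worms, a fold of 0.918 (95% interval 0.585 to 1.44; log2 fold -0.12, SE 0.33). The level of crt-1 was 7.26 times that of cnx-1 in NO worms and 6.51 times in control worms, and the intervals of the folds of these genes overlap widely.

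The sensor genes were the least abundant of the set, and neither was called. ire-1, which encodes the kinase and endoribonuclease that splices xbp-1 mRNA, had 36.0 FPKM in NO and 42.3 FPKM in control worms in the authors' deposited table. This was the lowest fold of the 8, at 0.850 (95% interval 0.553 to 1.31; log2 fold -0.23, SE 0.32, unadjusted p = 0.460 by the authors' test). pek-1, which encodes the kinase that phosphorylates translation factor eIF2 alpha under ER stress, was deposited at 10.6 FPKM in NO and 11.3 FPKM in control worms. Its fold was 0.934 (95% interval 0.563 to 1.55; log2 fold -0.10, SE 0.37). Of all loci, 52.2% had a lower mean than pek-1 and 75.2% a lower mean than ire-1. ire-1 stood above pek-1 by 3.40-fold in NO and 3.74-fold in control worms.

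The locus that holds xbp-1, the transcription factor downstream of IRE-1, had nearly equal values in both conditions. It was deposited at 221 FPKM in NO and 221 FPKM in control worms (fold 1.00, 95% interval 0.643 to 1.56; log2 fold 0.0015, SE 0.33, unadjusted p = 0.996 by the authors' test). This locus is joined with its neighbour dnj-16, a J-domain gene, so the value is that of both genes together. The splicing of xbp-1 mRNA, by which IRE-1 activates it, does not enter a value per locus and was not measured here. The locus stood 6.13-fold above ire-1 in NO worms and 5.21-fold above it in control worms.

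**Figure D2:**
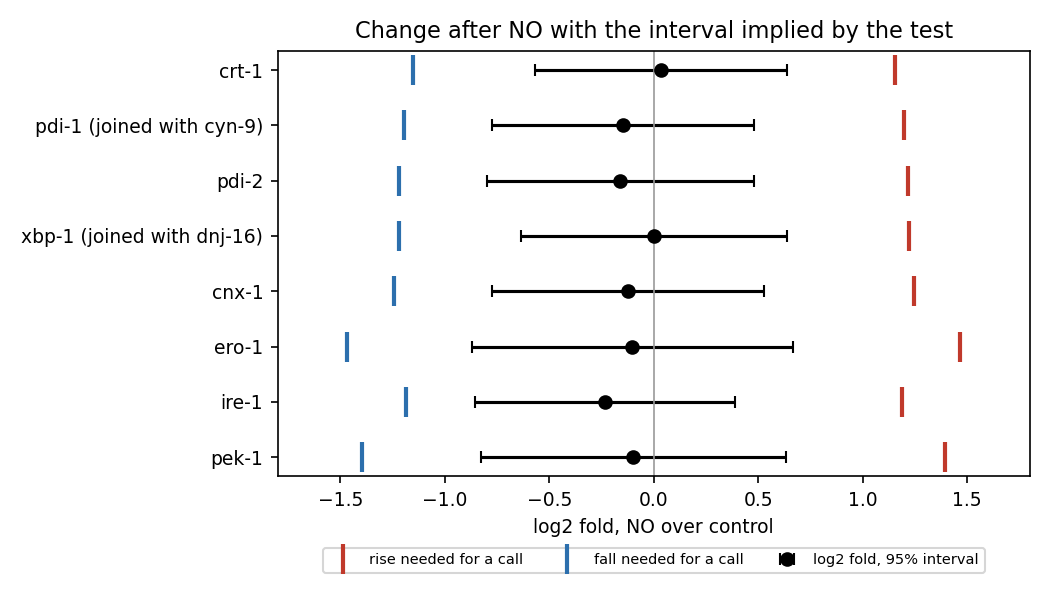
Log2 fold of NO over control for each of the 8 genes (points) with the 95% interval implied by the deposited test statistic (bars); outer ticks mark the rise or fall that a call would have needed. All 8 intervals include 0 and none reaches the ticks.

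The order of the 8 levels was the same in both conditions, from crt-1 through pdi-1, pdi-2, xbp-1, cnx-1, ero-1 and ire-1 to pek-1. The levels of pdi-1 and xbp-1 here are those of their joined loci, so the rank of either gene alone is unknown. The range spanned 84.2-fold in NO and 76.8-fold in control worms, on a scale that corrects for transcript length. The error of a single level is not in the table, so neighbours in this order were not tested. The closest were pdi-1 and pdi-2, and the widest gap was between ire-1 and pek-1. Summed over the 8 loci, the set held 2020 FPKM in NO and 2099 FPKM in control worms, or 0.157% of all FPKM in NO and 0.155% in control.

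Small negative folds were also the rule among other loci of like abundance. Of the 8 genes, 6 had a lower value in NO and 2 a higher value. Among all loci with a mean over 100 FPKM, 76.6% had a lower value in NO, with a median log2 fold of -0.14. The share was 62.05% at 10 to 100 FPKM, with a median of -0.09. The median log2 fold of the 8 genes was -0.11, between those values. A change of no more than 0.23 on the log2 scale in either direction, the largest in the set, was found in 50.1% of loci that averaged 1 FPKM or more and were above 0 in both conditions. After subtracting the median of loci in the same abundance range, cnx-1 turned from a log2 fold of -0.12 to 0.015, and the other 7 genes kept their sign. The SE of the set had a median of 0.33, against 0.34 over loci above 100 FPKM and 0.44 over loci at 10 to 100 FPKM.

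**Figure D3:**
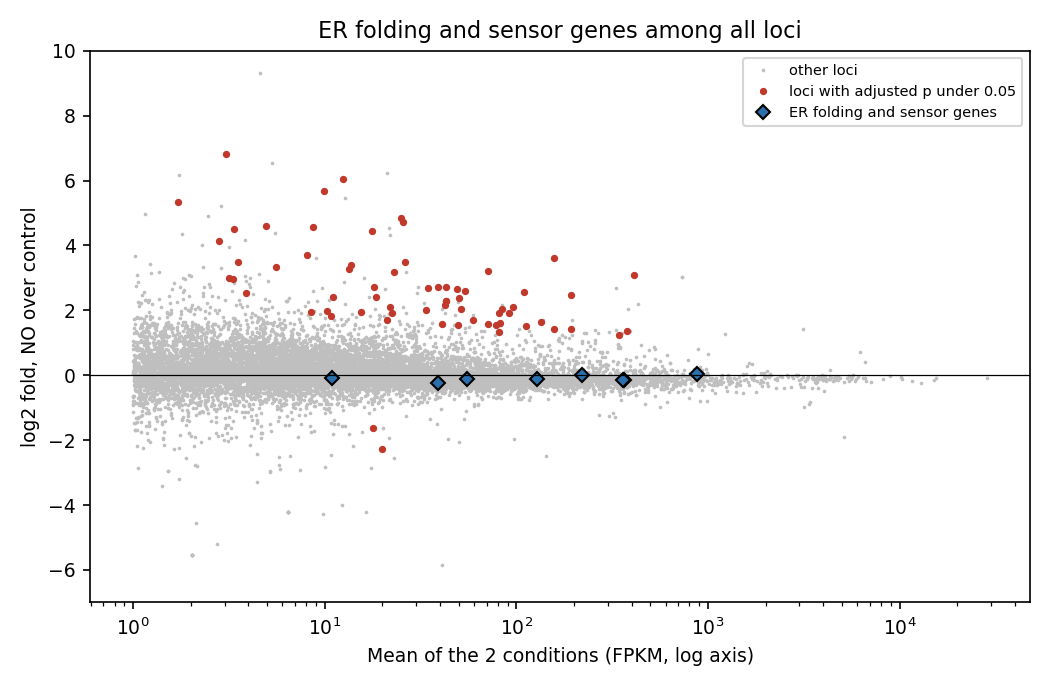
Log2 fold of NO over control against the mean of the conditions in FPKM (log axis) for the 13742 loci that averaged 1 FPKM or more and were above 0 in both conditions; diamonds are the 8 ER folding and sensor genes, larger dots the loci with an adjusted p under 0.05. The diamonds lie within the dense band of uncalled loci, between -0.23 and 0.03, and those of pdi-1 and pdi-2 overlap.

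Other genes of the ER, in 9 lists grouped by function, gave no call either. Of 82 such loci, 17 of them joined with other genes, 0 were called, against 0.399% of all loci, and the unadjusted p was under 0.05 for 2 that were higher and 0 that were lower, against 2.75% higher and 0.338% lower over all loci. Their median log2 ratio, after adding 1 FPKM to each value, was -0.14 over the 81 loci that averaged 1 FPKM or more, against -0.03 over all 14285 such loci. Of these 81 loci, 75 had a change smaller than its SE, and 60 had an interval that lay between 0.5 and 2-fold. The shares of all loci for these counts were not computed, and the quartiles of the log2 fold over all loci also lay within their median SE.

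Among 10 genes for ER HSP70, HSP90 and J-domain chaperones, a list that also takes in the torsin genes ooc-5 and tor-1, 0 were called or passed an unadjusted p of 0.05. hsp-4 encodes the worm BiP that is known to be induced through IRE-1 and XBP-1, and is the usual readout of that branch. Its deposited level was 144 FPKM in NO and 162 FPKM in control worms, a fold of 0.890 (95% interval 0.582 to 1.36). The other BiP gene, hsp-3, stood at 321 FPKM in NO and 341 FPKM in control worms, and enpl-1, the ER HSP90 gene listed as T05E11.3, at 227 FPKM in NO and 252 FPKM in control worms. The 9 genes of this list above 1 FPKM all had lower values in NO, with log2 folds between -0.35 (ooc-5) and -0.01 (dnj-27). Lower values in NO were also found in 76.6% of all loci over 100 FPKM and in 62.05% at 10 to 100 FPKM. At 1 to 10 FPKM, where dnj-27 averaged, the share was 38.3%. The most abundant gene of the list, the J-domain gene dnj-20, was deposited at 355 FPKM in NO and 358 FPKM in control worms.

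The signalling list held 7 further loci, with 0 calls. For gcn-2, in a locus joined with Y81G3A.4, the SE was 1.47, and a call would have needed a 45.4-fold change. atf-6, the gene of the remaining ER stress sensor, was deposited in a locus joined with tbc-13, at 11.1 FPKM in NO and 12.5 FPKM in control worms. eif-2alpha, the gene of the translation factor that PEK-1 phosphorylates, was listed at 183 FPKM in NO and 216 FPKM in control worms in the deposited table (log2 fold -0.24, SE 0.35). ckb-2, a choline kinase gene, had the lowest fold of this list, at 19.7 FPKM in NO and 28.99 FPKM in control worms (log2 fold -0.56, SE 0.41, unadjusted p = 0.170 by the authors' test). tmbi-4 was the 1 locus of the 7 with a higher value in NO, at 73.8 FPKM in NO and 70.3 FPKM in control worms. Lower values were also found in 62.05% of all loci at 10 to 100 FPKM, where most of this list averaged. The locus listed as atf-5, a bZIP transcription factor gene, stood at 87.1 FPKM in NO and 92.3 FPKM in control worms. It may be the gene now named atf-4, which the reference used here does not pair with that name.

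Genes that bring proteins into the ER and take failed ones out all had slightly lower values in NO, and none was called. For translocation this held for 14 of 14 loci, with a median log2 fold of -0.20 and a range from -0.30 (spcs-2, SE 0.85) to -0.03 (srpa-72, SE 0.32). The most abundant was the locus of emo-1, a subunit of the Sec61 channel, joined with F32D8.13, at 1115 FPKM in NO and 1277 FPKM in control worms in the deposited table. For ER-associated degradation, which returns misfolded proteins to the cytosol for the proteasome, it held for 15 of 15 loci, with a median log2 fold of -0.16. sel-1, an adaptor of the ER ubiquitin ligase, was joined with mrps-5 and stood at 148 FPKM in NO and 165 FPKM in control worms. The derlin gene cup-2 stood at 113 FPKM in NO and 133 FPKM in control worms, and the ubiquitin-conjugating enzyme gene ubc-7, the most abundant of the list, at 370 FPKM in NO and 427 FPKM in control worms. The range of this list ran from -0.27 (ubxn-4) to -0.02 (the locus of ufd-1) on the log2 scale. Of these loci, 9 of the translocation list and 8 of the degradation list averaged over 100 FPKM, where 76.6% of all loci were lower in NO. The other 5 and 7 averaged 10 to 100 FPKM, where 62.05% of all loci were lower. The oocyte and yolk markers rme-2, vit-2 and vit-6, summed, were also lower in NO, at 5584 FPKM against 7279 FPKM in control worms. Most of that sum came from the yolk protein genes vit-2 and vit-6. The part of these markers in the values above was not tested.

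Of 13 loci for glycan addition and the lectin cycle, which feed calnexin and calreticulin, 0 were called and 11 had lower values in NO. Among all loci, 76.6% were lower in NO over 100 FPKM, 62.05% at 10 to 100 FPKM and 38.3% at 1 to 10 FPKM. dad-1, an oligosaccharyltransferase subunit gene in a locus joined with F57B10.14 and F57B10.9, was the most abundant at 1311 FPKM in NO and 1533 FPKM in control worms. uggt-2, a paralog of the folding sensor gene uggt-1 that is listed as F26H9.8, was higher in NO at 2.76 FPKM, against 1.08 FPKM in control worms. Its log2 fold was 1.35 (SE 0.61, unadjusted p = 0.0262, adjusted p = 0.99994 in the authors' deposited table). uggt-1, listed as F48E3.3, stood at 25.5 FPKM in NO and 28.3 FPKM in control worms. The lowest fold of the list was that of mogs-1, a glucosidase gene, with a log2 fold of -0.31 (SE 0.36).

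The list of other thiol oxidoreductases held 8 genes, with dnj-27 shared with the chaperone list. Of these 8, 0 were called, against 0.399% of all loci, and 3 had higher and 5 lower values in NO. Among all loci, 76.6% were lower in NO over 100 FPKM, 62.05% at 10 to 100 FPKM and 38.3% at 1 to 10 FPKM. txdc-12.1, listed as Y57A10A.23, had the highest fold, at 55.2 FPKM in NO and 38.6 FPKM in control worms in the deposited table (log2 fold 0.52, SE 0.42). The lowest was txdc-12.2, with a log2 fold of -0.19 (SE 0.40). The most abundant locus joined dpy-11, a thioredoxin-like gene needed for body shape, with mdh-1, at 691 FPKM in NO and 775 FPKM in control worms. Of 7 ER prolyl isomerase loci, 0 were called, again against 0.399% of all loci. fkb-4, an FK506-binding protein gene, was the other locus with an unadjusted p under 0.05, at 6.43 FPKM in NO and 2.61 FPKM in control worms (log2 fold 1.30, SE 0.64, unadjusted p = 0.0430, adjusted p = 0.99994 in the authors' deposited table). fkb-4 averaged 4.52 FPKM, in the range where most loci were higher in NO. fkb-5 had the lowest fold of the prolyl isomerase list, with a log2 fold of -0.33 (SE 0.45). The most abundant locus, which joins cyn-5 with F31C3.3 and F31C3.4, stood at 693 FPKM in NO and 690 FPKM in control worms.

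The partners of PDI-2 in collagen hydroxylation were much less abundant than pdi-2 itself. dpy-18, an alpha subunit gene of prolyl 4-hydroxylase, was listed at 23.1 FPKM in NO and 16.7 FPKM in control worms in the deposited table (log2 fold 0.47, SE 0.38, unadjusted p = 0.221 by the authors' test). phy-2, the other main alpha subunit gene, was listed at 14.8 FPKM in NO and 14.2 FPKM in control worms (log2 fold 0.07, SE 0.50). All 4 measured collagen hydroxylase genes had higher values in NO, and 0 were called. At 1 to 10 FPKM, where phy-3 of these averaged, 38.3% of all loci were lower in NO, with a median log2 fold of 0.13. At 10 to 100 FPKM, where the others averaged, 62.05% were lower. Of 5 loci for ER calcium release and refilling, 4 had higher values in NO and 0 were called. sca-1, the ER calcium pump gene in a locus joined with K11D9.6, was the exception at 254 FPKM in NO and 263 FPKM in control worms. The highest fold was that of unc-68, the ryanodine receptor gene (log2 fold 0.20, SE 0.32). unc-68 averaged 7.04 FPKM, in the range where most loci were higher in NO. The other loci with higher values averaged 10 to 100 FPKM.

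**Figure D4:**
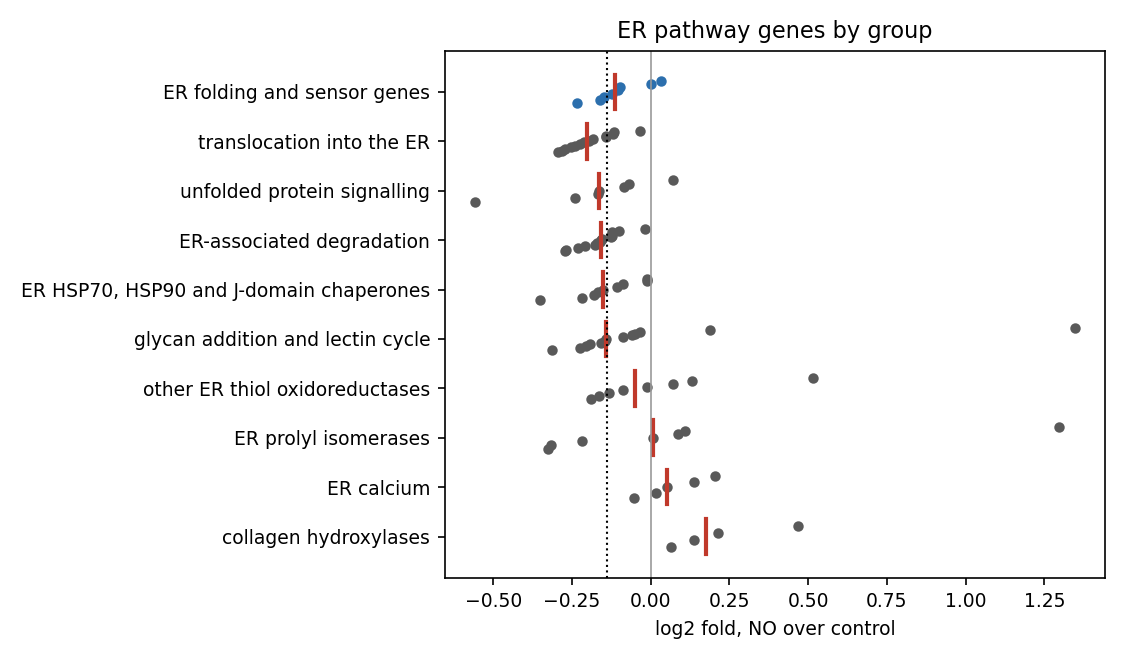
Log2 fold of NO over control for the 8 ER folding and sensor genes (top row) and the other ER genes averaging 1 FPKM or more by list, with short vertical bars at each list's median and a dotted line at the median of all loci above 100 FPKM. The translocation and degradation genes lie wholly below 0, and uggt-2 and fkb-4 are the points beyond 1.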

How the data were processed

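RNA was extracted with Trizol and sequenced as Illumina TruSeq libraries from 2 NO and 2 control samples, per the labels' protocols. Per the submitters' processing notes, the tools were TopHat2 2.0.2, Cufflinks 2.0.5 and R 2.15.2. The sources used here give neither their settings nor a genome build or annotation, and coordinates are left out. The authors deposited 1 value per condition, read as FPKM from the column layout, since the unit is not named. The deposited fold is the NO value over the control value, a ratio that held within 0.1 percent in all 15621 loci with no value of 0. Its deposited log2, test statistic (a score of opposite sign), p-value and adjusted p (Benjamini-Hochberg over all loci) come from the authors' comparison. Replicates were combined before deposit, so no model was refitted and depth is unknown.

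Loci were matched by gene name, split at commas, and list genes also through a reference gene table (WBcel235). The members and lists were chosen with earlier results of these data known. Genes in the text are all members and, from each list, any called gene, the most abundant gene, the highest and the lowest fold, and a fixed set (hsp-3, hsp-4, enpl-1, atf-6, atf-4, dpy-18, phy-2, sca-1, sel-1, cup-2). atf-4 was not matched by name and may be the locus listed as atf-5. The values of atf-5 and uggt-1 were added after they were seen. tag-353 and rheb-1 were dropped from the lists after their values were seen, since their role in the ER was unsure. Log2 ratios used a pseudocount of 1 FPKM and a minimum mean of 1 FPKM. The adjustment and interval code was tested on log2 folds simulated with the implied SE. That checks the code and not whether the intervals hold for these data. Python 3.11.15, pandas 2.3.3 and scipy 1.17.1 were used.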

Additional observations from a re-analysis of the deposited data

How the results depend on the processing

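The count of 0 called ER folding and sensor genes was the same at adjusted p thresholds of 0.01 and 0.1, at an unadjusted p under 0.05, and after adjusting again over loci that averaged 1 FPKM or more. None of these settings could have changed it. The smallest unadjusted p of the 8 genes was 0.460 (ire-1) by the authors' test, and all shared an adjusted p of 0.99994. Among the other ER genes the count was 0 at adjusted p thresholds of 0.01, 0.05 and 0.1, and 2 at an unadjusted p under 0.05. The median log2 ratio of the 8 genes stayed between -0.11 and -0.08 with another pseudocount or minimum, without joined loci, or centred on the median of all loci. The other minimum was 10 FPKM, which all 8 exceeded, so it could not change the median. Leaving out the joined loci removed pdi-1 and xbp-1, which lay on opposite sides of the median, so that could not change it either. Centred within abundance ranges, an alternative chosen after seeing the data, the median log2 ratio was -0.0087. For this ratio that centring subtracts -0.14 above 100 FPKM and -0.08 at 10 to 100 FPKM. Of 24 recomputed member folds, 23 kept their direction, and cnx-1 turned to 0.015 under that centring. That count is a weak check, since adding 1 FPKM to both values cannot change the sign of a fold. The centrings subtracted negative medians, so the positive folds of crt-1 and xbp-1 could not turn either. No paired analysis was possible because the table combines the replicates of a condition, and leaving out single replicates was not run for the same reason. The implied SE limits what could be seen, and a call would have needed a change of at least 2.22-fold among the 8 genes and at least 2.01-fold among the other ER genes.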
